A study of Mus musculus with 6 samples.

Results

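The 10 genes described here are the Notch receptors Notch1, Notch2, Notch3 and Notch4, the ligands Dll1, Dll3, Jag1 and Jag2, and the target genes Hes1 and Hes5. They were taken by gene symbol from a deposited table of 23412 genes, and all 10 were found. The table holds RNA-seq of undifferentiated mouse embryonic stem cells (mESCs) of strain 129Sv, with 3 libraries of the parental wild type line R1 and 3 of the Htt-null line HN (Htt-/-), in which the promoter and exon 1 of the huntingtin gene had been deleted. Both lines were grown without feeder cells on gelatin in serum medium with LIF and inhibitors of FGF/VEGF receptors, MEK and GSK3. The libraries came from 3 batches of both lines, and libraries of the same replicate number share a collection date. HN is 1 line, so the deletion cannot be told apart from other differences between the lines. The comparison of HN with R1 asks which genes differ in mESCs without huntingtin before neural differentiation starts.

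Notch receptors are membrane proteins that are activated by Delta-like (Dll) and Jagged (Jag) ligands on a neighbouring cell. Binding leads to cleavage of the receptor by ADAM proteases and gamma-secretase, and the released intracellular part enters the nucleus, where it joins the DNA-binding protein RBPJ and Mastermind proteins and activates genes of the Hes and Hey families. Hes and Hey proteins are basic helix-loop-helix repressors. In the developing nervous system they hold progenitors back from becoming neurons, and Hes1 is also known to be expressed in mESCs, where its level fluctuates.

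Library depth ranged from 1640391 to 3866717 reads on genes. Htt, the deleted gene, was at 230, 257 and 199 normalized counts in R1 (replicates in the order 1, 2, 3, as in all lists of values) and at 18.3, 58.1 and 54.2 in HN, so every HN library lay below every R1 library. The 8 stem cell markers Pou5f1, Nanog, Sox2, Klf4, Esrrb, Zfp42, Tdgf1 and Dppa5a had a summed normalized count of 12129 to 17914 in R1 and 12845 to 17304 in HN libraries. Markers of other cell types were read at far lower sums, up to 249 for 7 neural progenitor genes, 247 for 5 mesoderm and primitive streak genes, 144 for 5 endoderm genes, 94.2 for 5 endothelial genes and 125 for 6 fibroblast genes. None of these marker genes was at 0 in all libraries. Replicate 3 of each line stood apart, with reads on 20675 (R1) and 20542 (HN) genes against 18133 to 19083 in the other libraries, so values are given by date throughout.

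The 10 members were read at mean normalized counts over the 6 libraries from 12.8 (Dll1) to 117 (Hes1). No member differed between the lines past the test. The normalized count is the number of reads on the exons of a gene after division by the size factor of the library, and a fold change is the difference of mean log2(normalized count + 1), HN minus R1. Of the 10 members, 0 passed limma's test (Benjamini-Hochberg adjusted p under 0.05 over 14276 genes), where 0.245% of all tested genes did, and 0 passed with the collection date as a block, where 9.48% did. The libraries of the lines overlapped for every member, whereas 10.8% of all tested genes did not overlap. Without the block, 0 members had an unadjusted p under 0.05 (5.91% of all tested genes), and with it 1 did, Dll3 (21.6% of all tested genes), so neither count is above the background. edgeR on the recovered reads also called 0 members, with and without the block. DESeq2 called 0 of the 9 members for which it gave an adjusted p without the block (none for Dll1), and 0 of 7 with it (none for Dll1, Dll3 and Hes5). The median log2 fold change of the members was -0.07, against -0.01 for all tested genes. Low counts set how firmly this can be stated, since the reads of a member summed over the 6 libraries ranged from 73 (Dll1) to 724 (Hes1).

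**Figure D1:**
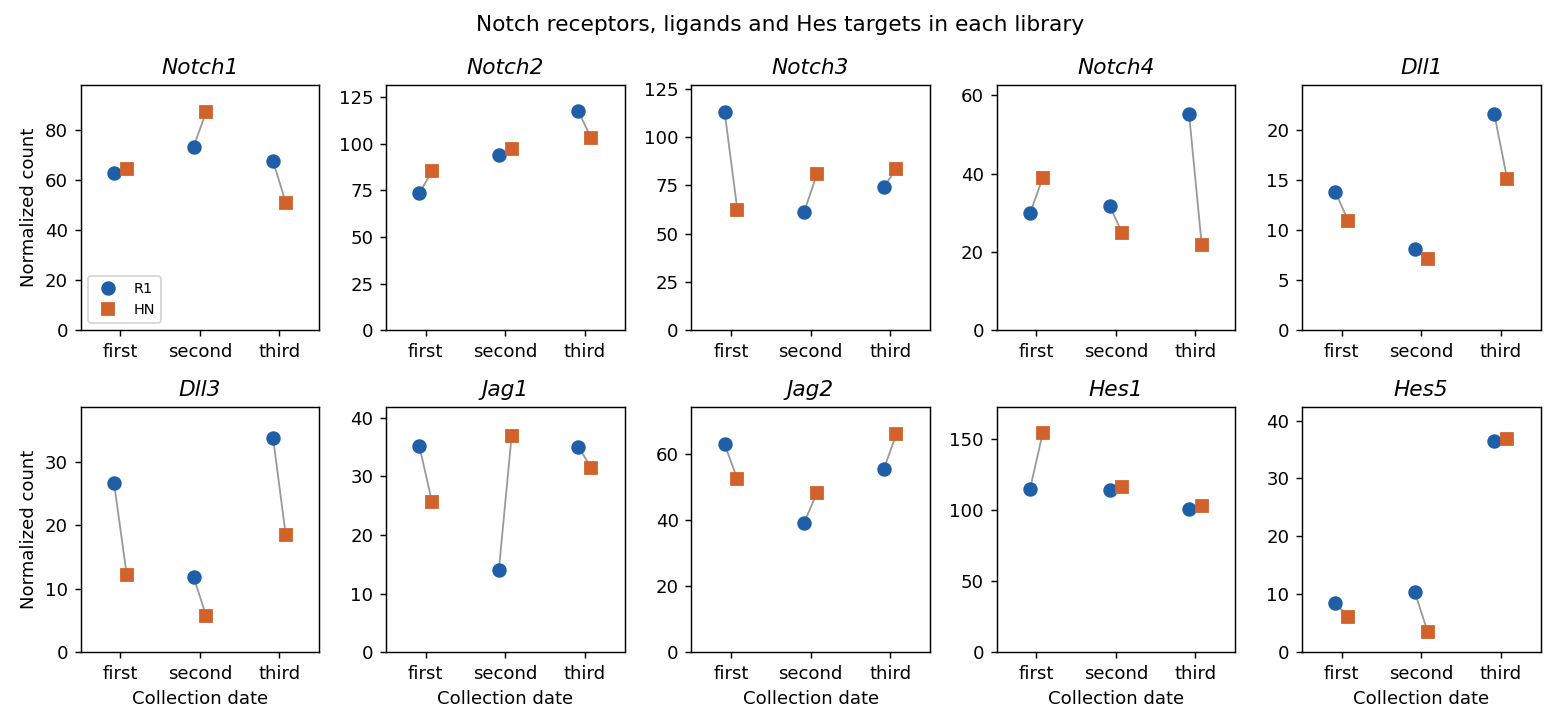
Normalized count (y axis, from 0) of each member in each library, by collection date (x axis), with R1 as blue circles and HN as orange squares. Grey lines join libraries of the same date. The lines overlap in every panel, Dll3 lies lower in HN at each date, and Hes5 lies between 36.4 and 36.8 at the third date in both lines and at most at 10.4 before.

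Among the receptors, Notch1 (GRCm38, chromosome 2 from 26457903 to 26516663, minus strand) and Notch2 (chromosome 3 from 98013527 to 98150361, plus strand) are the broadly expressed members of the family. The R1 libraries had 62.8, 73.2 and 67.4 normalized counts of Notch1 and the HN libraries 64.5, 87.2 and 50.9. The HN libraries thus held both the highest and the lowest Notch1 values. With an R1 mean of 67.8 ± 5.23 and an HN mean of 67.5 ± 18.3 (SD, n = 3), the log2 fold change was -0.04 (standard error 0.26), and the 95% confidence interval of the difference ran from 0.660-fold to 1.44-fold. Notch2 had 73.5, 93.9 and 117 in R1 and 85.2, 97.1 and 103 in HN. In both lines its values were lowest at the first date and highest at the third. The log2 fold change of Notch2 was 0.02 (standard error 0.24), with an interval from 0.710-fold to 1.46-fold.

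Notch3 (chromosome 17 from 32120820 to 32166852, minus strand), best known from vascular smooth muscle, had 113, 61.4 and 74.1 in R1 and 62.1, 80.8 and 83.4 in HN. R1 replicate 1 was the highest of these libraries, and at the other dates HN lay above R1. The log2 fold change was -0.10 (standard error 0.27), with an interval from 0.620-fold to 1.41-fold. Notch4 (chromosome 17 from 34564268 to 34588503, plus strand), best known from endothelial cells, had 29.8, 31.8 and 55.3 in R1 and 38.9, 24.8 and 21.7 in HN. Its pairs did not point one way, since HN lay above R1 at the first date by 0.37 on the log2 scale and below it by 0.35 and 1.31 (differences of -0.35 and -1.31) at the second and the third. The log2 fold change of Notch4 was -0.43 (standard error 0.35), with an interval from 0.438-fold to 1.26-fold. For Notch1, Notch2 and Notch3, a change between the lines of 2-fold or more lies outside the interval, while for Notch4 the interval reaches a drop of more than 2-fold. With the date as a block the intervals narrowed to 0.757-fold to 1.25-fold for Notch1, 0.818-fold to 1.26-fold for Notch2, 0.717-fold to 1.22-fold for Notch3 and 0.511-fold to 1.08-fold for Notch4, where a 2-fold drop then lies outside.

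Among the ligands, Dll3 (chromosome 7 from 28293553 to 28302238, minus strand) is a divergent ligand known for its role in somite formation, which does not activate Notch receptors on other cells and can inhibit signalling in its own cell. Dll3 was read at 26.6, 11.8 and 33.7 normalized counts in R1 libraries and at 12.2, 5.67 and 18.4 in HN libraries, from 25, 16 and 25 reads and 10, 8 and 17 reads. HN lay below R1 at each date, although the lines overlap when dates are not matched. The log2 differences within dates were -1.07, -0.94 and -0.84. The log2 fold change of -0.95 was the lowest of the members (standard error 0.53, adjusted p = 0.99998 by limma), with an interval from 0.232-fold to 1.15-fold. With the date as a block the standard error was 0.33, the interval ran from 0.323-fold to 0.829-fold and the adjusted p was 0.0672, so Dll3 did not pass the test over all genes.

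Dll1 (chromosome 17 from 15367354 to 15376872, minus strand), a Delta-like ligand that activates Notch receptors in neural and somite precursors, had 13.8, 8.14 and 21.6 in R1 and 11.0, 7.09 and 15.2 in HN, from 9 to 16 reads per library. It also lay lower in HN at each date, by smaller steps than Dll3. The log2 fold change of Dll1 was -0.32 (standard error 0.52), and the interval from 0.361-fold to 1.77-fold was wide at this depth. Members with the same direction at all 3 dates numbered 3 (Dll1, Dll3 and Hes1), where 41.5% of all tested genes had the same direction at all dates. A share of 3 in 10 is below that background.

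Jag1 (chromosome 2 from 137081456 to 137116644, minus strand), a Jagged ligand required for blood vessel, heart and inner ear development, had 35.1, 14.1 and 35.0 in R1 and 25.6, 36.9 and 31.4 in HN. R1 replicate 2 was low and the other libraries lay close together. The log2 fold change of Jag1 was 0.24 (standard error 0.39), with an interval from 0.658-fold to 2.13-fold. Jag2 (chromosome 12 from 112907819 to 112929776, minus strand), the other Jagged ligand, had 62.8, 39.2 and 55.3 in R1 and 52.3, 48.2 and 66.1 in HN. Its lines crossed from date to date, with a log2 fold change of 0.10 (standard error 0.27) and an interval from 0.708-fold to 1.61-fold.

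Of the target genes, Hes1 (chromosome 16 from 30064384 to 30067796, plus strand) had the most reads of the members. R1 libraries held 115, 115 and 101 normalized counts of Hes1, and HN libraries held 155, 116 and 103. HN lay above R1 at each date, by 0.42 on the log2 scale at the first and by 0.02 and 0.03 at the others, so most of the difference came from HN replicate 1. From an R1 mean of 110 ± 7.93 and an HN mean of 125 ± 26.8 (SD, n = 3), the log2 fold change was 0.16 (standard error 0.22), with an interval from 0.795-fold to 1.56-fold. Hes5 (chromosome 4 from 154960923 to 154962371, plus strand), a target best known from neural progenitors, had 8.52, 10.4 and 36.4 in R1 and 6.08, 3.54 and 36.8 in HN, from 8, 14 and 27 reads and 5, 5 and 34 reads. Both lines showed a step between dates. Within dates the log2 differences of Hes5, HN minus R1, were -0.43, -1.32 and 0.02, those of the earlier dates from few reads. Between the lines the log2 fold change was -0.58 (standard error 0.79), and the interval from 0.202-fold to 2.22-fold was the widest of the members.

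**Figure D2:**
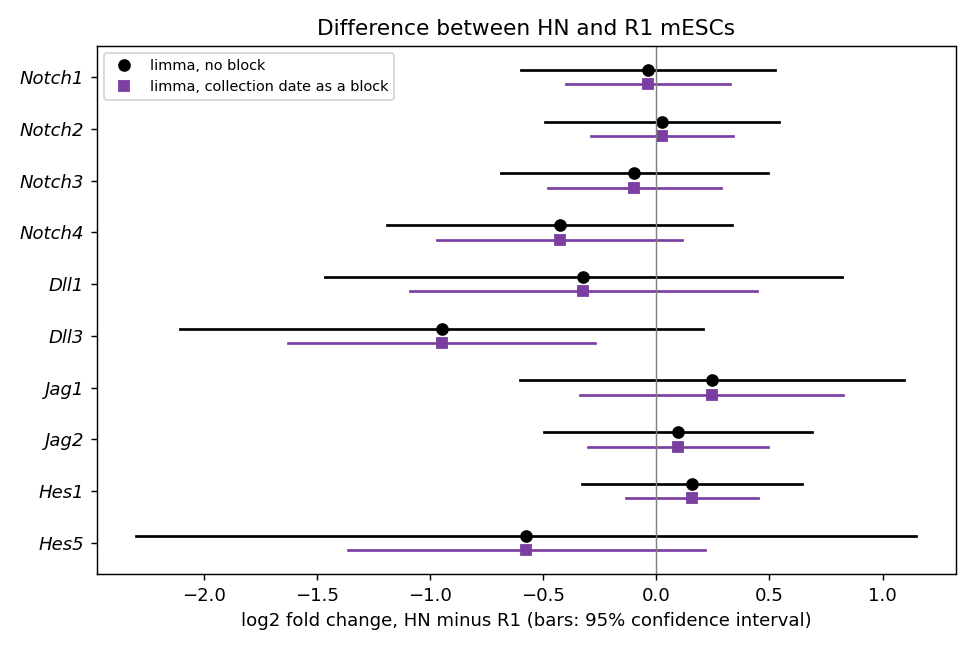
log2 fold change of each member, HN minus R1 (x axis), from limma without a block (black circles) and with the collection date as a block (purple squares), with 95% confidence intervals. All intervals without the block include 0. With the block, the interval of Dll3 (-1.63 to -0.27) lies below 0, with an adjusted p of 0.0672.

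The stretch just before the start of Hes5 is shown because Hes5 is a well known direct target of RBPJ and is the member that differed between dates, as described further on. The sequence is from RefSeq (GRCm38.p6, plus strand, chr4:154960673-154960922), written 5′ to 3′ up to the base before the annotated start, and the capitals mark the core letters TGGGAA of the RBPJ motif or, on the opposite strand, TTCCCA:

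Hes5: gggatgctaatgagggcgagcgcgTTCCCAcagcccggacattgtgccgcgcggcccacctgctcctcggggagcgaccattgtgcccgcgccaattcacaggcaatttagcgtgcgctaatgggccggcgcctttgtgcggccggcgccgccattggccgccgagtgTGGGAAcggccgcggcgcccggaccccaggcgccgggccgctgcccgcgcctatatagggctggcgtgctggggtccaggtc

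The matches begin 226 and 82 bases before the start (chromosome 4 from 154960697 to 154960702 and from 154960841 to 154960846). Promoter windows of 300 bases, 250 before to 50 after the start, were found for 9 of the 10 members, and of these Hes5 alone held the core letters. Genes without a window, and sequence outside the windows, were not searched, so such letters may lie there. The other members, Hes1 included, therefore cannot be said to lack them. Among all 32851 windows, 25.6% held at least 1 such match and 3.79% held 2 or more, so these letters are common and a match is a description of the sequence only. Of the other targets with a window, Hey2 and Hes7 held a match (2 of 4).

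Levels of different genes can be compared only per length, so reads were converted to RPKM, scaled by the exon length of the gene and by the reads on genes of the library. On this scale Hes1 had the highest level, 22.9 ± 3.50 (SD over 6 libraries), and was above every other member in each library. Hes5 followed with 5.26 ± 5.10, then Notch3 with 3.91 ± 0.945, Notch2 with 3.55 ± 0.812, Jag2 with 3.12 ± 0.719 and Dll3 with 2.61 ± 1.68. The lowest levels were those of Jag1 (2.05 ± 0.643), Notch1 (1.89 ± 0.270), Notch4 (1.70 ± 0.744) and Dll1 (1.25 ± 0.623). Below Hes1, each member's range over the libraries overlapped that of the next, so the order among these neighbours is not fixed by these data. The place of Hes5 came from the third date, at 12.1 in R1 and 11.5 in HN. At the earlier dates its level was 2.42 and 2.85 in R1 and 1.76 and 0.949 in HN, and by the mean of those 4 libraries it ranked 5, after Hes1, Notch3, Notch2 and Jag2. With the length of the longest transcript in place of all exons, Jag2 moved up to rank 3 and Notch1 to rank 7 over the 6 libraries.

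**Figure D3:**
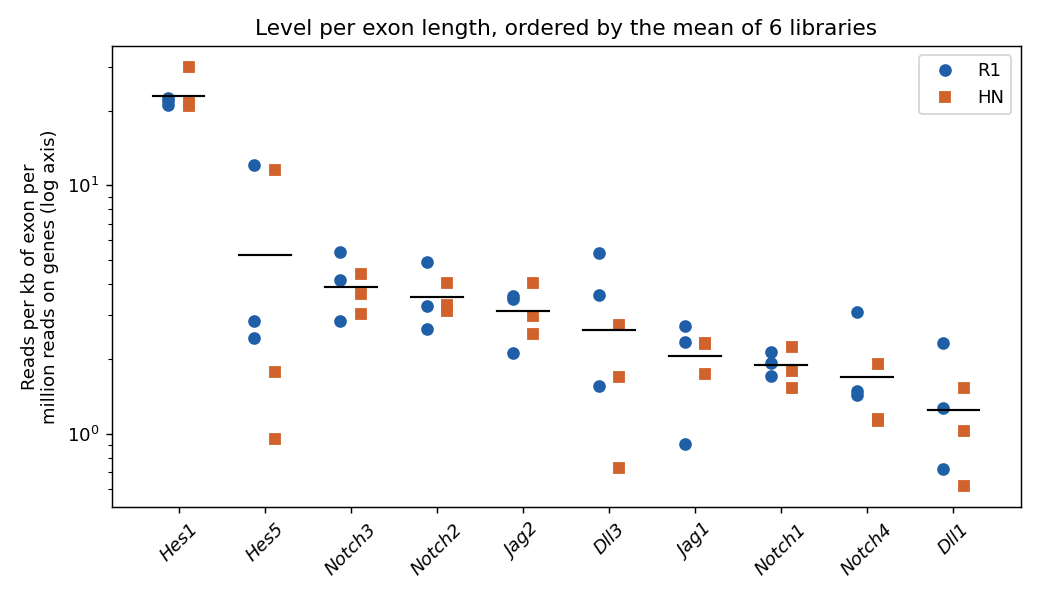
Level of each member in RPKM, scaled by exon length and by reads on genes (y axis, log scale), with R1 as blue circles, HN as orange squares and the mean of the 6 libraries as a line. Hes1 stands above the other members (20.8 to 30.0), Hes5 spans the widest range (0.949 to 12.1), and Dll1 is lowest on average.

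Among the receptors, Notch3 made up 35.7% ± 10.9 of the summed receptor level in R1 libraries and 35.2% ± 4.36 in HN libraries (SD, n = 3). Notch2 made up 30.8% ± 6.21 in R1 and 33.4% ± 2.73 in HN, while Notch1 and Notch4 each made up between 10.3% and 21.7% in every library. The receptor mix of the lines thus differed by less than the spread between replicates. Dll3 made up 33.8% ± 4.44 of the summed level of the 4 ligands in R1 and 20.1% ± 7.43 in HN, and Jag1 19.4% ± 2.36 and 27.5% ± 8.65. These shares restate the Dll3 and Jag1 values above and were not tested. The summed ligand level was 9.99 ± 4.38 in R1 and 8.06 ± 2.28 in HN, and in bulk RNA fewer cells with a transcript and less of it per cell cannot be told apart.

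The clearest step among the members was in Hes5, between the third collection date and the earlier dates, in both lines. The 4 libraries of the earlier dates had normalized counts of 3.54 to 10.4 and the 2 libraries of the third date 36.4 and 36.8. In limma's test of the third date against the earlier ones, with the line as a term, Hes5 was 4.9-fold higher (log2 difference 2.29, standard error 0.43, adjusted p = 0.0108). The step was 1.85 on the log2 scale in R1 and 2.74 in HN, and the difference between these steps, 0.89 (standard error 0.85), did not pass the test (adjusted p = 0.9999 by limma). This test was chosen after the values of Hes5 had been seen. It rests on 1 library per line, and without R1 replicate 3 or HN replicate 3 Hes5 did not pass (adjusted p = 0.445 and 0.184).

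No other member passed at the third date, so 1 of 10 was higher and 0 were lower, where 8.93% of all tested genes were higher and 7.22% lower. Dll1 and Dll3 had log2 differences of 0.84 and 0.97 (adjusted p = 0.173 and 0.129 by limma), and those of the receptors lay between -0.28 (Notch1) and 0.33 (Notch2). Hes1 went the other way from Hes5, with 101 and 103 at the third date against 115 to 155 before (log2 difference -0.28, adjusted p = 0.318 by limma). Both libraries of the third date lay above all earlier libraries for 3 members (Notch2, Dll1 and Hes5), as for 21.3% of all tested genes, and below them for 1 (Hes1), as for 20.9%. Hes5 lies among the 3951 tested genes with a mean normalized count from 5 to 20. Their median log2 difference at the third date was 1.06, against -0.07 for all tested genes. Of these 3951 genes, 24.2% passed the test as higher, and 6.15% rose more than Hes5. Markers of other cell types moved with it. Their summed normalized count at the third date was 203 to 249 for neural progenitor genes against 64.4 to 110 before, 121 to 144 for endoderm genes against 29.8 to 54.8, 90.3 to 94.2 for endothelial genes against 19.2 to 43.8, and 82.3 to 125 for fibroblast genes against 14.9 to 59.6, while that of mesoderm genes overlapped (84.9 to 132 against 80.9 to 247). Of the 7 neural progenitor genes, 5 passed the test as higher, as did 3 of 5 endoderm, 2 of 4 tested endothelial and 2 of 5 tested fibroblast genes. Among these, Neurog2, Cdh5 and Col1a1 had means of 3.98, 1.71 and 2.23 at the earlier dates. They reached the mean of 5 needed for testing only through the third date, so these shares are partly set by the filter. Of the 8 stem cell markers, Pou5f1 and Esrrb (2) were lower, and of the mesoderm genes Eomes. Whether cells of other types were present was not tested. The part of the marker changes, of the number of genes detected and of the culture batch in the step of Hes5 was not tested either.

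**Figure D4:**
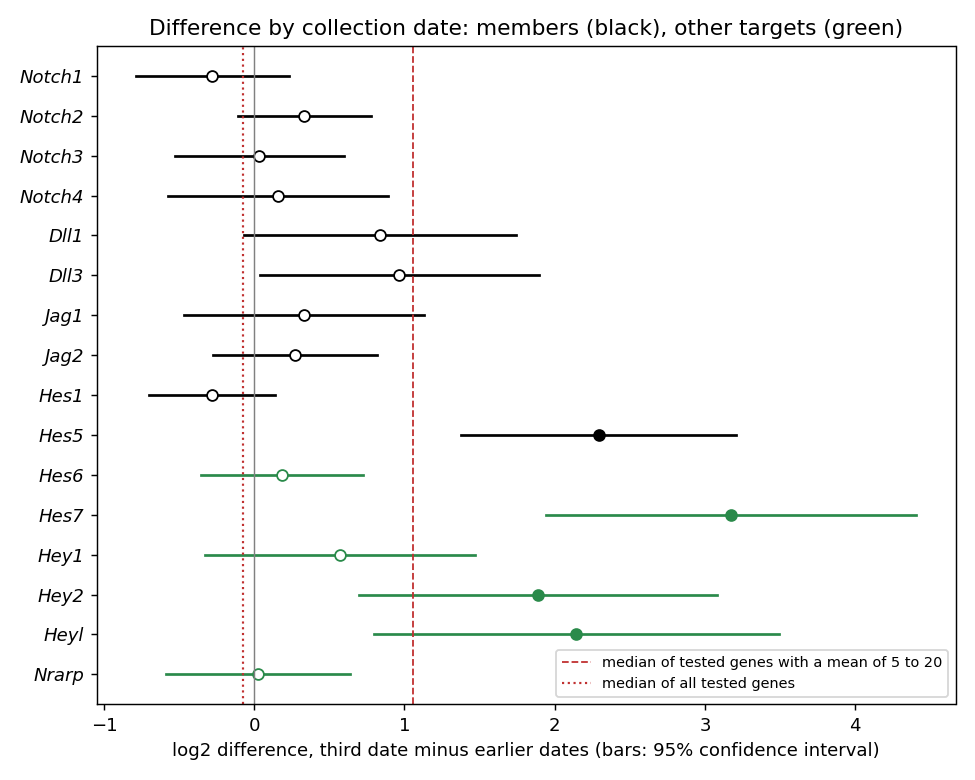
log2 difference between the third collection date and the earlier dates (x axis, limma with the line as a term, 95% confidence intervals) for the members (black) and the other tested Hes, Hey and Nrarp targets (green). Filled points passed the test, and the dashed and dotted lines are the medians of tested genes with a mean of 5 to 20 (1.06) and of all tested genes (-0.07). Hes5, Hes7, Hey2 and Heyl lie to the right of both lines, and Hes1 does not. Hes7, Hey2 and Heyl reached the mean needed for testing only through the third date, and the 5 to 20 range is of means over all 6 libraries.

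A list of 58 further Notch pathway genes was fixed by role, of which 54 had a mean normalized count of at least 5. Dll4 (26 reads in all), Dlk2 (8), Hes2 (16) and Hes3 (24) were too sparse to test. Of the 54 genes, 0 passed limma's test between the lines without the block, and 6 had an unadjusted p under 0.05, beside 5.91% of all tested genes. With the block 4 were higher and 1 was lower in HN, which is 5 of 54 beside 9.48% of all tested genes. The median log2 fold change of the 54 genes was 0.13.

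The 4 genes that were higher with the block were a glycosyltransferase gene and genes of corepressors. Such corepressors are recruited by RBPJ in the absence of a Notch signal, or by Hes proteins. Poglut1 adds O-glucose to the extracellular part of Notch receptors. It was read at 435, 562 and 313 normalized counts in R1 libraries and at 774, 790 and 542 in HN libraries, so HN was higher at each date (log2 fold change 0.70, standard error 0.24, adjusted p = 0.601 by limma and 4.37e-06 with the block). Ncor1, a scaffold for histone deacetylases, had 940, 1266 and 811 in R1 and 1473, 1757 and 1179 in HN (log2 fold change 0.55, adjusted p = 0.752 by limma and 3.03e-05 with the block). Both genes overlap between the lines unless dates are matched. Ctbp2 (log2 fold change 0.53, adjusted p = 0.823 by limma and 1.08e-04 with the block) and Tle3 (0.43, 0.827 and 0.0228) showed the same direction at each date, and for Tle3 the lines did not overlap. Lines without overlap were seen for 10.8% of all tested genes. Psen2, a catalytic subunit of gamma-secretase, was the gene that was lower, with 60.7, 42.9 and 49.9 in R1 and 24.3, 34.7 and 31.4 in HN. No HN library reached an R1 library for Psen2 (log2 fold change -0.74, adjusted p = 0.696 by limma and 0.0335 with the block). The calls of Tle3 and Psen2 were lost with DESeq2 and the block (adjusted p = 0.220 and 0.329), and with limma and the block without replicate 1 (0.168 and 0.326) or without replicate 2 (0.105 and 0.0607), whereas Poglut1, Ncor1 and Ctbp2 passed in each of these fits. Markers also differed between the lines with the block, and without it none passed. Of the 8 stem cell markers 5 passed with the block, with Zfp42 lower in HN (log2 fold change -0.79, adjusted p = 6.37e-08 with the block, lines not overlapping) and Klf4 (0.52), Esrrb (0.37), Nanog (0.28) and Dppa5a (0.27) higher. Of the other markers T (1.21), Eomes (0.96) and Tek (1.38) were higher and Thy1 (-1.54) was lower with the block. The part of these differences in the pathway calls was not tested.

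The remaining pathway genes did not pass with or without the block. Among ligands other than the members, the log2 fold changes were 0.02 for Dlk1 and -0.28 for Dner. In receptor maturation they ranged from -0.52 (Lfng, a fringe glycosyltransferase) to 0.76 (Furin, the protease that cuts the receptor precursor), and in receptor cleavage from -0.49 (Aph1b) to 0.56 (Adam10, which makes the ligand-dependent cut). In the nuclear complex they ranged from -0.26 (Snw1) to 0.74 (Maml2, a Mastermind coactivator). Rbpj, named although it falls outside the rule because it binds the motif shown for Hes5, had 313, 473 and 244 in R1 and 393, 518 and 283 in HN, higher in HN at each date by less than the spread between dates (log2 fold change 0.22, standard error 0.28). In corepressors the highest of the rest was Tle2 with 0.31, and in ubiquitination and trafficking it was -0.59 (Neurl1a) to 0.24 (Mib2). The targets ranged from -0.65 for Nrarp, a feedback inhibitor of Notch, to 0.95 for Hes7, a gene of the somite clock. Nrarp was lower in each HN library than in any R1 library (adjusted p = 0.827 by limma and 0.0944 with the block). Furin and Adam10 went the other way, each higher in every HN library than in any R1 library (adjusted p = 0.178 and 0.102 by limma with the block). For 10.8% of all tested genes the lines did not overlap.

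Between dates, 10 of the 54 pathway genes were higher and 7 lower at the third date in limma's test, beside 8.93% and 7.22% of all tested genes. The following genes are named because they passed this test, after their values had been seen. Hes7 (log2 difference 3.18, standard error 0.57, adjusted p = 0.0104), Heyl (2.14, 0.63 and 0.0368) and Hey2 (1.89, 0.55 and 0.0368) were higher, as was Hes5. These were 3 of 6 tested targets, but their mean normalized counts at the earlier dates were 3.47, 2.33 and 2.86. They reached the mean of 5 needed for testing only through the third date, so that share is partly set by the filter. Hes7 had 1.06, 1.48 and 32.3 in R1 and 8.52, 2.84 and 32.5 in HN, a pattern close to that of Hes5. Dlk1 and Dner, ligands of an unusual type, also passed (2.15 and 2.01, adjusted p = 0.0166 and 0.0239 by limma), each from 90 reads or fewer in all. Rbpj was lower at the third date (-0.66, adjusted p = 0.0348 by limma). Hes6, Hey1 and Nrarp had log2 differences of 0.19, 0.57 and 0.02 and did not pass. All of the targets that were higher had few reads. The rise of low genes at this date given above applies to them, with the limit given there. Of tested genes with a mean of 5 to 20, 24.2% passed as higher.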

How the data were processed

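RNA-seq libraries of R1 and HN mESCs (3 each) were analysed. Upstream, STAR was used by the authors for alignment (mm10/GRCm38), Picard to drop PCR duplicates, HTSeq for exon counts per gene and DESeq2 for normalization. The deposited values are this normalized signal per gene. Tool versions and the annotation are not given in the sources used here. Every value was a whole multiple (within 0.01 reads) of the value of 1 read in its library (100% of values), so reads were recovered and used for depth, levels per length and count-based alternatives. Intervals of differences come from limma. The kit does not keep the strand, so reads on exons that overlap genes of the opposite strand (in Notch1, Notch3, Dll1 and Hes5) cannot be told apart. Of the 50-base stretches of Notch2 transcripts, 3.75% also occur in Gm42820, of those of Notch3 0.0866% in Gm30232, and of the other members 0%.

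Values were compared as log2(normalized count + 1) with limma 3.58.1 (empirical Bayes, variance trend) in R 4.3.3, over 14276 genes with a mean of at least 5. The fits were also run on simulated counts, with changes planted only in genes with higher means than Dll1, Dll3 and Hes5. That check therefore does not cover changes in these members. The main fit has no block because the study names none. Replicate numbers share a collection date in the labels, and deviations of same-date libraries from their line means correlated across genes at 0.250, 0.688 and 0.768, so the fit with the date as a block is given beside it. Alternatives were edgeR 4.0.16, DESeq2 1.42.0, other pseudocounts, filters and scaling, and libraries or dates left out. Positions and exon lengths are from GENCODE M21. The genes named are the members, pathway genes that passed with or without the block, the highest and lowest of the rest in each role, Htt and the cell markers, and others where the text says so. Some genes that this rule names are not reported here. Members and lists were chosen with earlier results of these data known. Nothing in the labels or methods beyond the batches shows that libraries were separate cultures, so p-values measure the spread between these libraries. An exact permutation test of 3 against 3 cannot go below 0.1 and was not used.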

Additional observations from a re-analysis of the deposited data

How the results depend on the processing

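Under 19 to 22 alternatives per member to limma without a block, 0 members passed in any, with Dll3 nearest among the fits of all 6 libraries (adjusted p = 0.0672 with the replicate block) and Notch4 at 0.0594 with the block and without replicate 1. Dll1 and Dll3 kept a negative log2 fold change in each alternative that tested them (-0.66 to -0.01 and -1.37 to -0.53). The filter at a mean of 50 removed Notch4, Dll1, Dll3, Jag1 and Hes5. Notch1 turned to 0.00432 with edgeR and 0.017 with edgeR and the replicate block. The pathway list had 0 genes past the test without the block, and, higher and lower in HN, 4 and 1 with the replicate block, 4 and 2 with edgeR and the block, 3 and 0 with DESeq2 and the block (37 of the list with an adjusted p). With the block and 1 date left out, alternatives chosen after seeing the data, the counts were 3 and 1 without replicate 1, 3 and 0 without replicate 2, and 4 and 1 without replicate 3. Tle3 and Psen2 were not among them without replicate 1 or without replicate 2. In those fits the log2 fold change turned to 0.14 for Notch1 and 0.014 for Notch4 (without replicate 3), -0.070 for Notch2, 0.28 for Notch3, -0.43 for Dlk1 and -0.13 for Tle2 (without replicate 1), and -0.30 for Jag1, -0.0028 for Jag2, -0.16 for Dlk1 and 0.15 for Dner (without replicate 2). Dlk1 was also negative with edgeR (-0.63), edgeR and the replicate block (-0.34), DESeq2 (-0.68) and a pseudocount of 10 (-0.12). With single libraries or dates left out and no block, directions turned for Notch1 (-0.24 to 0.15), Notch2 (-0.15 to 0.19), Notch3 (-0.34 to 0.28), Notch4 (-0.83 to 0.014), Jag1 (-0.30 to 0.59), Jag2 (-0.10 to 0.27), Hes1 (-0.0089 to 0.28), Hes5 (-1.49 to 0.039), Dlk1 (-0.50 to 1.06), Dner (-0.99 to 0.36), Lfng (-1.17 to 0.067), Aph1b (-1.09 to 0.12), Tle2 (-0.16 to 0.80) and Mib2 (-0.050 to 0.50), so none of these has a direction here. The cause was not tested. At the third date, Hes5 passed in 8 of 10 alternatives (log2 difference 1.46 to 2.74), and with 1 library left out it lay between 1.85 and 2.74, with 0 to 1 members higher. Depth limits Dll1, Dll3 and Hes5 most, with 73, 101 and 93 reads in all.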
